A study of Mus musculus with 16 samples.

Results

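Caveolins and cavins are the proteins that build caveolae, flask-shaped pits of the plasma membrane. Caveolins are small membrane proteins that insert as a hairpin into the inner leaflet and pack into oligomers, and cavins are soluble proteins that assemble around those oligomers as a coat. Caveolae are known for taking up membrane tension, for lipid handling and for holding receptors and kinases, and in the brain they are best known from endothelial cells. The 5 genes described here are *Cav1*, *Cav2*, *Cavin1*, *Cavin2* and *Cavin3*, found by symbol among the 30386 genes of the deposited table. Of the 5 genes, 4 had at least 1 read in some sample, and the same 4 were among the 12533 genes that passed a filter on low values, which was more than 1 CPM (the reads of a gene per 1e6 reads of the sample) in at least 4 samples. The family was chosen by its levels in the CPM table and by their difference between the transgenes, overall and in each set of numbers, which earlier results of these data had shown. Its values in that contrast are therefore a description, and no p-value is given for them.

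RNA came from cultured neural stem/progenitor cells (NSPCs) of the subventricular zone, which underlies the lateral ventricles of the mouse brain. NSPCs divide in such cultures and can make neurons and glia. The 16 samples were 8 of *GFP*-NSPCs, which carried a *GFP* transgene and served as controls, and 8 of *Dbx2*-NSPCs, which constitutively expressed a transgene for the homeobox factor *Dbx2*. The cells of both groups had been derived from C57BL/6 J/Babr mice of 3 months of age, nucleofected with a pTP6 plasmid, kept under puromycin as bulk lines, and grown as non-adherent cultures in medium with EGF and FGF2. The study had made its lines as 2 pairs from independent derivations, and the labels do not say which pair a sample came from. The labels number the samples of each group from 1 to 8, and numbers 1 to 4 and 5 to 8 are treated below as 2 sets of 4.

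The libraries were made with a QuantSeq kit, which reads the 3′ end of polyadenylated RNA, so a value reflects transcripts and not their length. Whole reads could be recovered from the CPM, and each sample held 1803929 to 3293285 reads, with 3 reads, taken as the floor, equal to 0.911 to 1.66 CPM. All 10 markers of stem and progenitor cells passed the filter, and their summed level was lower with the *Dbx2* transgene, without overlap within either set of numbers. It was 8925.54 to 9229.89 CPM in controls against 6948.97 to 8043.11 CPM in numbers 1 to 4, and 7454.5 to 8066.91 against 6357.03 to 6846.68 CPM in numbers 5 to 8. *Sox9* went the other way, from 653 to 775 CPM on average in numbers 1 to 4 and from 320 to 465 CPM in numbers 5 to 8. *Nes* and *Vim* averaged higher with the transgene in numbers 1 to 4 only, and the other markers averaged lower in both sets. The number sets stood apart within each group: the 4 samples of one set did not overlap the 4 of the other for 28.9% of the tested genes in *GFP*-NSPCs and for 19.8% in *Dbx2*-NSPCs. Whether the sets differ by line, by experiment or by library preparation cannot be told apart. *Dbx2* itself averaged 77.2 ± 51.8 CPM (SD, n = 8) in the controls and 155 ± 35.4 CPM in *Dbx2*-NSPCs. It was 120 ± 35.6 against 173 ± 41.4 CPM in numbers 1 to 4, where the groups overlapped, and 34.0 ± 3.96 against 136 ± 16.9 CPM in numbers 5 to 8, where they did not (n = 4 each). The libraries of numbers 1 to 4 thus carried less difference in *Dbx2* between the groups, and how much of it came from the transgene was not tested.

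The family sits in 4 places of the genome (GRCm38, GENCODE M21). *Cav2* (ENSMUSG00000000058) lies at chromosome 6, 17281185 to 17289115, and *Cav1* (ENSMUSG00000007655) follows it on the same plus strand at 17306335 to 17341452, 17.2 kb further on. *Cavin1* (ENSMUSG00000004044) lies on the minus strand of chromosome 11 at 100956733 to 100970887. *Cavin2* (ENSMUSG00000045954) lies on the plus strand of chromosome 1 at 51289126 to 51302960, and *Cavin3* (ENSMUSG00000037060) on the minus strand of chromosome 7 at 105480083 to 105482300. The antisense gene *Gm15581* spans *Cav1* and *Cav2* without sharing exon bases, as *9330175M20Rik* does for *Cavin2*, and both were listed at 0 in every sample. *Gm45667*, on the strand opposite to *Cavin3*, shares 374 exon bases with it, so reads of *Cavin3* could not be assigned with certainty where strand was not used in counting, which the sources used here do not state.

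The 250 bases before the start of a gene are shown for 3 members: *Cav2*, which was higher with the transgene in both number sets, its neighbour *Cav1*, which was listed at 0 in every sample, and *Cavin2*, which was lower. They are RefSeq sequences of build GRCm38.p6, written 5′ to 3′ on the strand of the gene, at chr6:17280935-17281184 for *Cav2*, chr6:17306085-17306334 for the first of 2 *Cav1* starts, and chr1:51288876-51289125 for *Cavin2*. Capitals mark matches to 6 words looked for on both strands: the GC box of the Sp and Klf factors GGGCGG, the box of the factor NF-Y spelled CCAAT, the AP-1 word TGANTCA, the core promoter word TATAAA, the TEAD word CATTCC and the homeodomain core TAATTA. No match overlapped another in these windows.
Cav2: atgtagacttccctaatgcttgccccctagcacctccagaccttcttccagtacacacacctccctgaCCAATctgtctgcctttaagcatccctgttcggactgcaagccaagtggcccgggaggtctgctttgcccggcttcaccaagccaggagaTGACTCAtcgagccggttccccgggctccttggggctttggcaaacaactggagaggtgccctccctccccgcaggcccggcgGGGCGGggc
Cav1: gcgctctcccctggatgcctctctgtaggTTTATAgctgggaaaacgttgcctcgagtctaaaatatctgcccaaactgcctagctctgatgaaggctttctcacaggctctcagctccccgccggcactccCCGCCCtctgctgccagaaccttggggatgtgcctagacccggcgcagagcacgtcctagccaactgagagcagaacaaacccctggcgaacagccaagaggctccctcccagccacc
Cavin2: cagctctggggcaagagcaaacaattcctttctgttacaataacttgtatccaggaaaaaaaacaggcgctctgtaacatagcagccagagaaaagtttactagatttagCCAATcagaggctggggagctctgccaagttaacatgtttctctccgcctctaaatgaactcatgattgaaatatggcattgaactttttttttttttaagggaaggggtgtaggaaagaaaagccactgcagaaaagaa

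The *Cav2* window held GGGCGG at 9, TGANTCA at 92 and CCAAT at 182 bases before the start. The *Cav1* window held GGGCGG at 118 and TATAAA at 221 bases, both on the opposite strand and so printed as their reverse complements, and the *Cavin2* window held only CCAAT, at 140 bases. The *Cavin1* window, which lies inside the gene model of GENCODE and is not printed, held the GC box and the words of NF-Y and TEAD. Among 32817 promoters of the same length, GGGCGG occurred in 32.7%, CCAAT in 33.8%, TGANTCA in 6.75%, TATAAA in 12.4%, CATTCC in 12.6% and TAATTA in 4.85%, and no member's window held TAATTA. RefSeq matched 4 of the 5 genes, and *Cavin3* was not matched. The windows of *Cav2* and *Cav1* had GC contents of 62% and 59.6%, against 40.4% for *Cavin2*.

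Caveolin-1 is the caveolin that non-muscle cells need to form caveolae. *Cav1* was listed at 0 CPM in all 16 samples. Counting error alone allows up to 0.911 to 1.66 CPM in a single sample, and less for a level shared by all 16. *Cav3*, the muscle caveolin, was also listed at 0 in every sample. *Cavin4*, the muscle cavin, stayed under the filter at 0.461 ± 0.431 CPM in the controls and at 0.355 ± 0.268 CPM with the *Dbx2* transgene. *Cav2* was thus the caveolin of these cultures that was read.

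Caveolin-2 forms mixed oligomers with caveolin-1. *Cav2* stood at 44.72, 32.8, 31.61, 20.33, 27.71, 24.54, 23.22 and 31.25 CPM in *GFP*-NSPCs numbered 1 to 8, and at 65.82, 66.16, 76.52, 86.47, 66.17, 55.6, 58.69 and 64.49 CPM in *Dbx2*-NSPCs. Every *Dbx2*-NSPC sample was above every *GFP*-NSPC sample, and the lowest and highest of the 8 ratios between same-numbered samples were 1.47 and 4.25. The means were 29.5 ± 7.57 and 67.5 ± 9.83 CPM (SD, n = 8 each), a ratio of 2.29, and the log2 fold change of log2(CPM + 0.5) was 1.20 with a standard error (SE) of 0.138. Among the tested genes, 1.6% had groups that did not overlap with *Dbx2*-NSPCs higher.

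The number sets gave nearly equal values for *Cav2*. In numbers 1 to 4 the means were 32.4 ± 9.97 and 73.7 ± 9.83 CPM (n = 4 each), with a log2 fold change of 1.22 (SE 0.204). In numbers 5 to 8 they were 26.7 ± 3.58 and 61.2 ± 4.94 CPM, with a log2 fold change of 1.19 (SE 0.128). *Cav2* was the member whose level hardly depended on the set: the mean of numbers 1 to 4 was 1.21 times that of numbers 5 to 8 in *GFP*-NSPCs and 1.20 times in *Dbx2*-NSPCs, and the sets overlapped in both groups. The difference between the log2 fold changes of the sets was -0.03. *Dbx2* itself differed between the groups by 0.54 (log2) in the lower set and by 1.99 in the upper set. Whether *Cav2* depends on the level of *Dbx2* was not tested.

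Cavin-1 is the coat protein that caveola formation depends on. *Cavin1* stood at 49.96, 51.14, 28.67 and 31.99 CPM in *GFP*-NSPCs numbered 1 to 4 and at 96.64, 131.42, 217.2 and 299.24 CPM in *Dbx2*-NSPCs with those numbers. All 4 *Dbx2*-NSPC samples were above all 4 controls, with means of 40.4 ± 11.8 and 186 ± 90.8 CPM, a ratio of 4.60 and a log2 fold change of 2.10 (SE 0.309). In numbers 5 to 8 the values were 12.19, 11.96, 7.17 and 6.99 CPM in controls and 7.04, 6.83, 8.13 and 4.05 CPM in *Dbx2*-NSPCs. Here the groups overlapped, 3 of 4 same-numbered samples were lower with the transgene, and the log2 fold change was -0.52 (SE 0.288).

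The log2 fold changes of *Cavin1* in the 2 sets thus differed by -2.62. *Cavin1* stood higher with the transgene in numbers 1 to 4. In numbers 5 to 8 the groups overlapped, and each sample held 12 to 39 reads. There the ratio of the summed reads per depth, *Dbx2*-NSPCs over controls, was 0.675, with a 95% counting interval of 0.491 to 0.923. This interval covers counting error only and not the spread between cultures, so a fall is not established. Over all samples the means were 25.01 ± 18.3 and 96.3 ± 113 CPM, and the log2 fold change of 0.79 had an SE of 0.844. The count model of edgeR, which compares mean reads and was run on the recovered reads, gave 1.97 for the same samples, and both values lie between those of the sets. The level of *Cavin1* also depended on the set without the transgene: the mean of numbers 1 to 4 was 4.22 times that of numbers 5 to 8 in *GFP*-NSPCs and 28.6 times in *Dbx2*-NSPCs, with no overlap in either group.

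**Figure D1:**
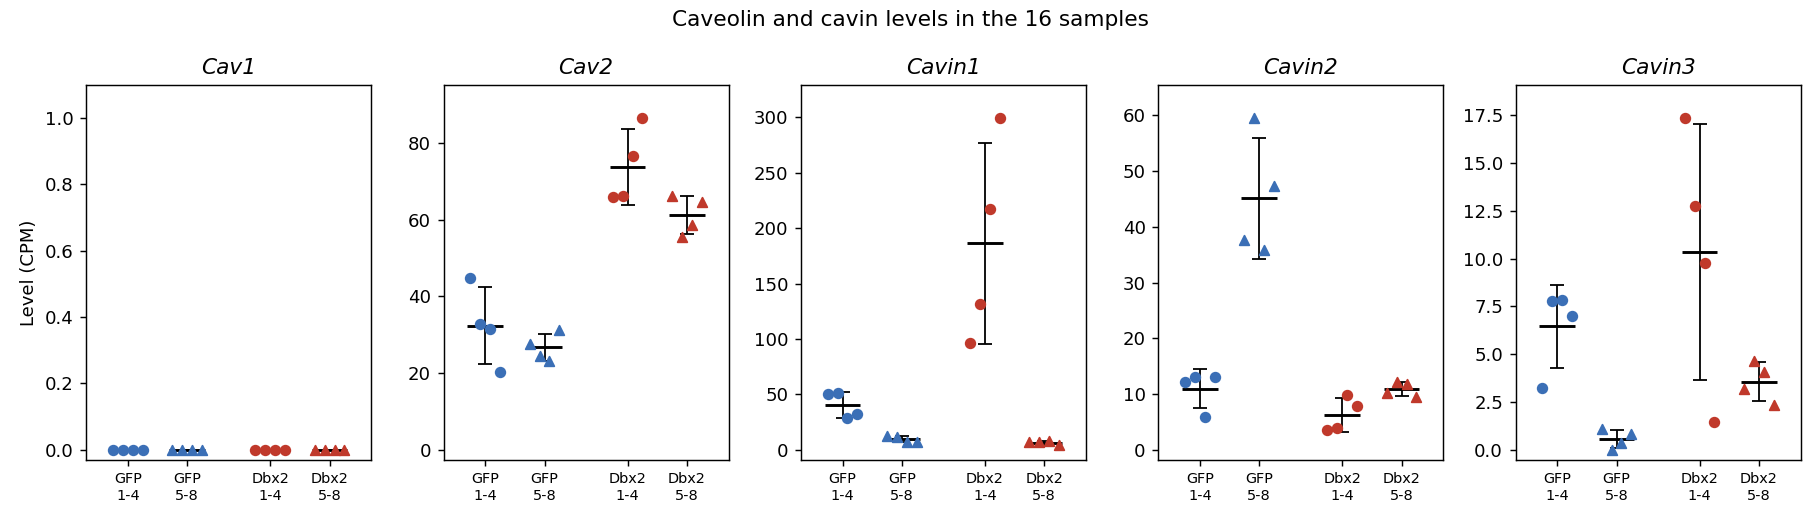
Level of each member (CPM, linear axis from 0, a scale of its own per gene) in the 16 samples, split by transgene and by replicate number; points are samples, horizontal bars means and whiskers 1 SD (n = 4). Cav2 is higher in all Dbx2-NSPC samples, Cavin1 reaches 299.24 CPM only in numbers 1 to 4, Cavin2 is highest in GFP-NSPCs numbered 5 to 8, and Cav1 is at 0 throughout.

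Cavin-2, also called SDPR, binds phosphatidylserine and shapes the caveola membrane. *Cavin2* stood at 12.09, 13.05, 5.86, 13, 37.68, 59.5, 35.86 and 47.29 CPM in *GFP*-NSPCs numbered 1 to 8 and at 3.53, 3.95, 9.77, 7.89, 10.21, 12.11, 11.74 and 9.45 CPM in *Dbx2*-NSPCs. It was lower with the transgene in 7 of 8 same-numbered samples, number 3 being the exception, and the means were 28.04 ± 19.7 and 8.58 ± 3.27 CPM. The log2 fold change over all samples was -1.40 (SE 0.411).

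The drop in *Cavin2* was plainest in numbers 5 to 8, where the groups did not overlap. There the means were 45.1 ± 10.8 and 10.9 ± 1.26 CPM, a level 4.14 times as high in the controls, with a log2 fold change of -1.98 (SE 0.184). In numbers 1 to 4 they were 11.0 ± 3.45 and 6.29 ± 3.04 CPM, the groups overlapped, and the log2 fold change was -0.81 (SE 0.367). Among *GFP*-NSPCs the mean of numbers 5 to 8 was 4.098 times that of numbers 1 to 4, with no overlap, whereas in *Dbx2*-NSPCs the sets overlapped at a ratio of 1.73. *Cavin2* was thus high in a single combination of transgene and set, the controls numbered 5 to 8.

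Cavin-3, also called PRKCDBP or SRBC, binds the coat and protein kinase C delta. *Cavin3* was the least read of the 4 detected members, with 80 reads over the *GFP*-NSPC samples and 170 over the *Dbx2*-NSPC samples. It stood at 3.22, 7.76, 7.82, 7, 1.11, 0, 0.34 and 0.82 CPM in *GFP*-NSPCs numbered 1 to 8 and at 17.34, 12.75, 9.77, 1.44, 3.17, 4.66, 4.06 and 2.36 CPM in *Dbx2*-NSPCs. It was higher with the transgene in 7 of 8 same-numbered samples, and number 4, with 4 reads in *Dbx2*-NSPCs, was the exception.

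In numbers 5 to 8 the *GFP*-NSPC samples held 5 reads of *Cavin3* together, at 0.568 ± 0.494 CPM, and the *Dbx2*-NSPC samples 40 reads, at 3.56 ± 1.01 CPM. The groups did not overlap, and the ratio of the summed reads per depth was 7.42 with a 95% counting interval of 2.93 to 24.1, which covers counting error only. In numbers 1 to 4 the means were 6.45 ± 2.19 and 10.3 ± 6.69 CPM, the groups overlapped, and the log2 fold change was 0.32 (SE 0.584). It was -0.04 without *Dbx2*-NSPC sample 1, 1.02 without *Dbx2*-NSPC sample 4 and 0.05 without *GFP*-NSPC sample 1, so single libraries set its size and sign. Among the controls *Cavin3* did not overlap between the sets, with 75 reads in numbers 1 to 4 against the 5 reads of numbers 5 to 8, whose mean lay under the floor. In *Dbx2*-NSPCs the mean of numbers 1 to 4 was 2.90 times that of numbers 5 to 8, and the sets overlapped.

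Counted by the family, the adjusted p of limma over all tested genes was under 0.05 for 2 members over all samples (*Cav2* higher, *Cavin2* lower), for 2 in numbers 1 to 4 (*Cav2* and *Cavin1*, both higher) and for 3 in numbers 5 to 8 (*Cav2* and *Cavin3* higher, *Cavin2* lower). The background shares of tested genes past that threshold were 15.8% (8.03% higher, 7.78% lower), 15.6% (8.19% higher, 7.37% lower) and 23.2% (11.5% higher, 11.7% lower). The groups did not overlap for 1, 2 and 3 members, and for 3.41%, 19.6% and 24.8% of the tested genes. With the number set as a covariate, *Cavin3* passed as well, which made 3 members over all samples. The call of *Cavin2* over all samples was lost without any 1 of the *GFP*-NSPC samples 5 to 8 or the *Dbx2*-NSPC samples 1 and 2. Its log2 fold change lay between -1.65 and -1.19 whichever of the 16 samples was left out. All these counts and calls restate the contrast by which the family was picked, and nothing is read from them.

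**Figure D2:**
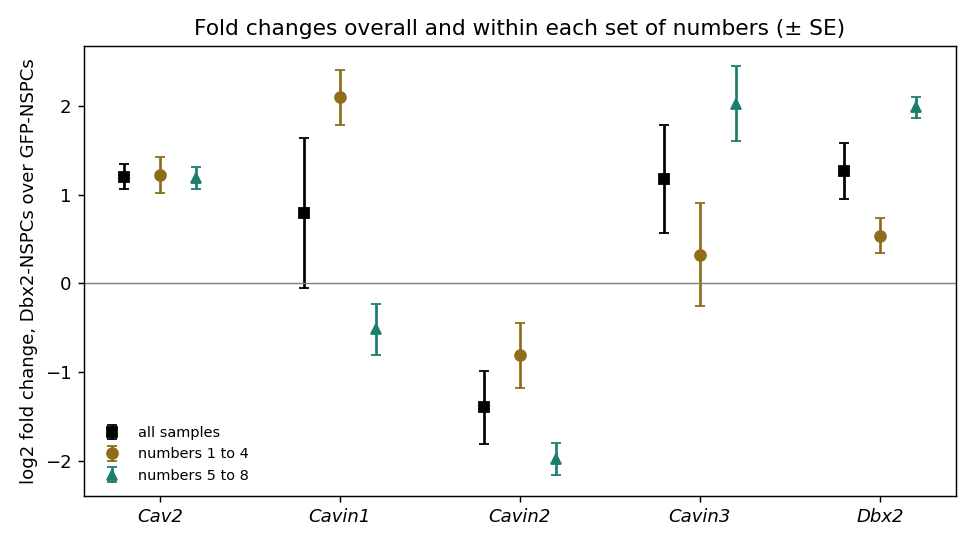
Log2 fold change of log2(CPM + 0.5), Dbx2-NSPCs over GFP-NSPCs, for the 4 detected members and for Dbx2, over all samples (squares), numbers 1 to 4 (circles) and numbers 5 to 8 (triangles); whiskers are 1 SE. Cav2 has the same height in the 3 fits, from 1.19 to 1.22, whereas Cavin1 is at 2.10 in numbers 1 to 4 and at -0.52 in numbers 5 to 8.

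The members did not rise and fall together over the 16 samples. Pearson's r of the log2 values was -0.86 between *Cavin2* and *Cavin3*, -0.67 between *Cav2* and *Cavin2*, 0.51 between *Cavin1* and *Cavin3* and 0.39 between *Cav2* and *Cavin1*. The samples share transgene and set, so these values carry the differences between the group means. Once each of the 4 combinations of transgene and set was centred on its own mean, r was 0.71 between *Cavin1* and *Cavin2*, and -0.54 between *Cavin1* and *Cavin3*. *Cav2* and *Cavin2* were then at 0.14.

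Other genes of at least 10 CPM on average followed single members more closely. For *Cav2* these were *Osbpl5*, an oxysterol-binding protein family member (r = 0.97 over 16 samples), *Rexo2*, an oligoribonuclease (0.96), and *Plcd4*, a phospholipase C (0.96). *Osbpl5* averaged 20.9 and 18.1 CPM in the *GFP*-NSPCs of the lower and the upper numbers and 48.5 and 46.3 CPM in the *Dbx2*-NSPCs, so it too was insensitive to the set. For *Cavin1* they were *Gpx1*, a glutathione peroxidase (0.95), *Cyr61*, a matricellular protein and target of YAP (0.94), and *Plin2*, a lipid droplet coat protein (0.93). *Gpx1* averaged 178 and 60.3 CPM in the *GFP*-NSPCs of the lower and the upper numbers and 314 and 56.5 CPM in the *Dbx2*-NSPCs.

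For *Cavin2* the nearest genes were *Rreb1*, a zinc finger factor (0.94), *Rev3l*, the catalytic subunit of DNA polymerase zeta (0.94), and *Nfia*, a glial transcription factor (0.92). For *Cavin3* they were *Olfm2*, an olfactomedin (0.91), *Tmem256* (0.91) and *Mro* (0.90). With the 4 combinations centred, r fell to 0.20 for *Gpx1* and for *Nfia*, and stayed at 0.82 for *Osbpl5*, 0.83 for *Rexo2*, 0.78 for *Rreb1* and 0.83 for *Tmem256*. These were the highest of 8650 genes for *Cav2*, *Cavin1* and *Cavin2* and of 8651 for *Cavin3*, and they were found by searching, so they carry no test.

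The genes around *Cav2* were read to see whether it moved with its stretch of chromosome 6. *Tes* and *Met*, known neighbours that encode a focal adhesion protein and the receptor of hepatocyte growth factor, reached at most 1.06 and 1.69 CPM in a sample and were not tested. The nearest tested genes were *Gm4876*, 109 kb before *Cav2*, and *Capza2*, a subunit of the actin capping protein, 347 kb after it. Of the 5 nearest tested genes on each side, 0 of 10 passed an adjusted p of 0.05 over all samples, and their log2 fold changes ran from -0.70 to 0.46.

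In detail, *Capza2* gave -0.25 (SE 0.113, limma adjusted p = 0.145), *St7* -0.70 (SE 0.270, adjusted p = 0.0862) and *Cttnbp2* -0.57 (SE 0.201, adjusted p = 0.0578) over all samples. A fit with the replicate block gave adjusted p of 0.0207 for *St7* and 0.0468 for *Cttnbp2* in limma. The log2 fold changes were 0.41 for *Gpr85*, -0.04 for *2610001J05Rik*, 0.46 for *1110019D14Rik*, 0.08 for *Mdfic* and for *Gm4876*, 0.24 for *Gm20186* and -0.28 for *Lsm8*. Within the sets, *Cttnbp2* fell by 1.15 on the log2 scale in numbers 1 to 4 (limma adjusted p = 0.000535) and *St7* fell by 0.83 in numbers 5 to 8 (limma adjusted p = 0.0127). No tested neighbour rose with *Cav2* past the threshold in any of the 3 fits. *1110019D14Rik* was at 1.22 in numbers 1 to 4 (SE 0.458, limma adjusted p = 0.095) and at -0.30 in numbers 5 to 8. The nearest tested genes lay 109 and 347 kb away, so whether *Cav2* moved with its closer surroundings was not tested.

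**Figure D3:**
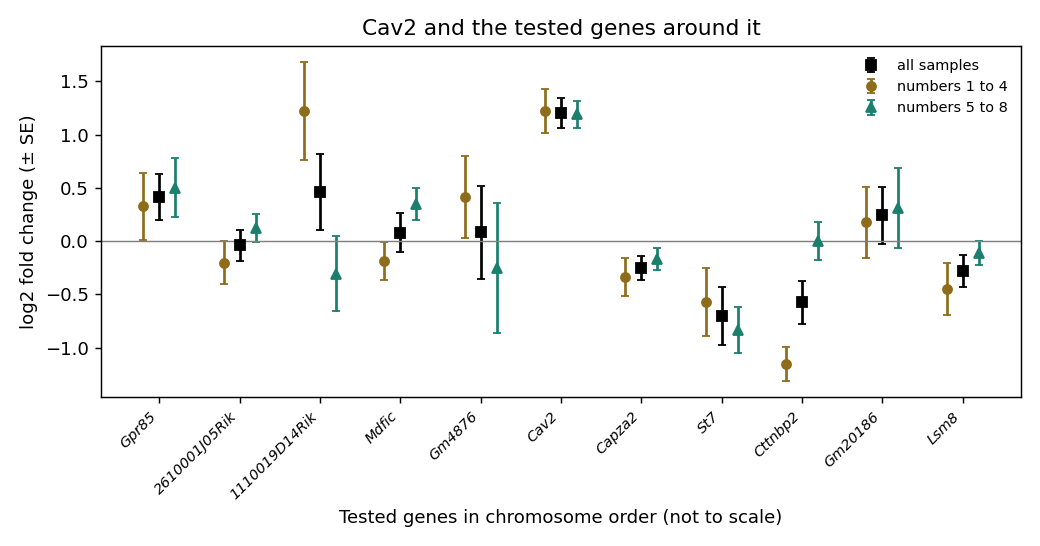
Log2 fold change (Dbx2-NSPCs over GFP-NSPCs, whiskers 1 SE) of Cav2 and its 5 nearest tested genes on each side, in chromosome order and not to scale, over all samples and in each number set. Cav2 stands at 1.19 to 1.22 in the 3 fits, while its neighbours lie between -0.70 and 0.46 over all samples.

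Beside the other members 6 neighbours passed over all samples, which made 6 of the 40 neighbours of the family, against the 15.8% background, and 10 of 40 with the replicate block, under which 21.7% of all tested genes passed. *Naglu*, a lysosomal glucosaminidase 99.1 kb after *Cavin1*, rose by 0.65 (limma adjusted p = 0.000753). A further 4, *Trim12a*, *Trim12c*, *Trim30a* and *Trim30d*, are tripartite motif genes that lie 972 to 1165 kb before *Cavin3*, and all rose. Before and after follow chromosome coordinates for these neighbours, although *Cavin1* and *Cavin3* lie on the minus strand. *Trim30a* was listed at 0 in all 8 *GFP*-NSPC samples and averaged 4.56 ± 2.42 CPM in *Dbx2*-NSPCs. These Trim genes are close paralogs, so the assignment of their reads is uncertain.

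Other genes of the caveola pathway were read from 4 lists, which also had been chosen with earlier results of these data known, and 48 of their 54 genes were tested. Over all samples 10 passed, 6 higher and 4 lower, which is 20.8% against the 15.8% background, and the median log2 fold change of the 48 was 0.01 against -0.02 over all tested genes. In numbers 1 to 4 there were 8 (6 higher, 2 lower), which is 16.7% against the 15.6% background, and in numbers 5 to 8 there were 14 (7 higher, 7 lower), which is 29.2% against 23.2%. With 10 to 15 tested genes in a list, the counts per list below are a description only.

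Of the coat partners, which shape or anchor the caveola neck, 3 of 10 tested genes rose and 0 fell over all samples, with a median log2 fold change of 0.38. Among all tested genes 8.03% rose and 7.78% fell. The median was 0.48 in numbers 1 to 4, with 2 higher and 0 lower, against 8.19% and 7.37% of all tested genes. It was 0.08 in numbers 5 to 8, with 2 higher and 2 lower, against 11.5% and 11.7%. *Ehd4*, a membrane-shaping ATPase, averaged 30.4 ± 17.4 CPM in controls and 67.3 ± 12.2 CPM in *Dbx2*-NSPCs (n = 8 each) and rose by 1.33 (SE 0.283, limma adjusted p = 0.00296). *Ehd3*, of the same family, rose by 0.70 (SE 0.202, limma adjusted p = 0.0225) and was higher in 8 of 8 same-numbered samples. Its limma adjusted p was 0.0752 in numbers 1 to 4 and 0.00138 in numbers 5 to 8. *Pacsin3*, a membrane-bending F-BAR protein, rose by 0.39 (SE 0.125, limma adjusted p = 0.0397), and its adjusted p reached 0.0798 in an alternative. In limma its adjusted p was 0.0992 in numbers 1 to 4 and 0.0917 in numbers 5 to 8. *Ehd2*, the family member that sits at the caveola neck, had a log2 fold change of -0.39 (SE 0.134, limma adjusted p = 0.0546) and fell by 0.63 in numbers 5 to 8 (limma adjusted p = 0.00666).

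Some partners differed between the sets. *Ehd4* rose by 2.22 in numbers 1 to 4 (limma adjusted p = 2.81e-06), and gave 0.43 in numbers 5 to 8 (limma adjusted p = 0.118). *Flna*, the actin crosslinker filamin A that binds caveolin-1, rose by 0.72 in numbers 1 to 4 (limma adjusted p = 0.0132) and fell by 1.06 in numbers 5 to 8 (limma adjusted p = 3.47e-07). *Flna* averaged 76.9 and 264 CPM in the controls of numbers 1 to 4 and 5 to 8, against 131 and 127 CPM in the *Dbx2*-NSPCs. For *Ehd4* these means were 15.3 and 45.5 CPM in the controls and 72.5 and 62.1 CPM in the *Dbx2*-NSPCs. The sets thus stood further apart in the controls than in the *Dbx2*-NSPCs for both genes. The difference between the sets passed its own test for both genes, by -1.79 for *Ehd4* (limma adjusted p = 1.68e-05) and -1.78 for *Flna* (limma adjusted p = 3.05e-07), in a model added after the data had been seen. Over all samples *Flna* had a log2 fold change of -0.17 (SE 0.303, limma adjusted p = 0.753).

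Of the receptors and kinases that caveolin binds, 3 of 12 tested genes fell and 0 rose over all samples, against 7.78% and 8.03% of all tested genes. *Egfr*, the receptor for the EGF of the culture medium, averaged 237 ± 39.7 CPM in controls and 173 ± 21.4 CPM in *Dbx2*-NSPCs. It fell by 0.45 on the log2 scale over all samples (SE 0.101, limma adjusted p = 0.00433), by 0.52 in numbers 1 to 4 and by 0.38 in numbers 5 to 8, past the threshold in each. *Yes1*, a Src family kinase, fell by 0.54 (SE 0.141, limma adjusted p = 0.0129). Its limma adjusted p was 0.0952 in numbers 1 to 4 and 0.0532 in numbers 5 to 8. *Insr*, the insulin receptor, fell by 0.49 (SE 0.160, limma adjusted p = 0.0422), and its adjusted p reached 0.0866 in an alternative. In limma its adjusted p was 0.0398 in numbers 1 to 4 and 0.327 in numbers 5 to 8.

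Of the YAP, TAZ and TEAD genes and targets, which respond to membrane tension, 1 of 11 tested genes passed over all samples, against the 15.8% background. *Lats1*, the kinase that restrains YAP, fell by 0.48 on the log2 scale (SE 0.152, limma adjusted p = 0.0378) and was lower in 8 of 8 same-numbered samples, although its adjusted p reached 0.0765 in an alternative. In limma its adjusted p was 0.193 in numbers 1 to 4 and 0.00666 in numbers 5 to 8. *Ccn1*, listed in the table as *Cyr61*, rose by 1.496 in numbers 1 to 4 (limma adjusted p = 0.0113), the set in which *Cavin1* was high. It gave -0.51 in numbers 5 to 8 (limma adjusted p = 0.414). *Ankrd1*, another target of YAP, was listed at 0 in every sample.

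Of the other raft and endocytic coat genes, which serve routes into the cell other than caveolae, 3 of 15 tested genes rose and 0 fell over all samples. Among all tested genes these shares were 8.03% and 7.78%. *Stom*, the raft protein stomatin, averaged 18.9 ± 5.69 CPM in controls and 39.8 ± 9.76 CPM in *Dbx2*-NSPCs, and rose by 1.07 (SE 0.184, limma adjusted p = 0.000478). It was higher in 8 of 8 same-numbered samples, with 1.18 in numbers 1 to 4 and 0.96 in numbers 5 to 8 (limma adjusted p = 0.00113 and 0.00914). *Flot1*, a flotillin of membrane rafts, rose by 0.43 (SE 0.118, limma adjusted p = 0.0164). Its limma adjusted p was 0.0182 in numbers 1 to 4 and 0.151 in numbers 5 to 8. *Dab2*, a clathrin adaptor, rose by 1.97 (SE 0.275, limma adjusted p = 5.48e-05) from 1.31 ± 0.816 to 6.20 ± 1.64 CPM; it lies under the level set for naming genes and was named after its values were seen.

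**Figure D4:**
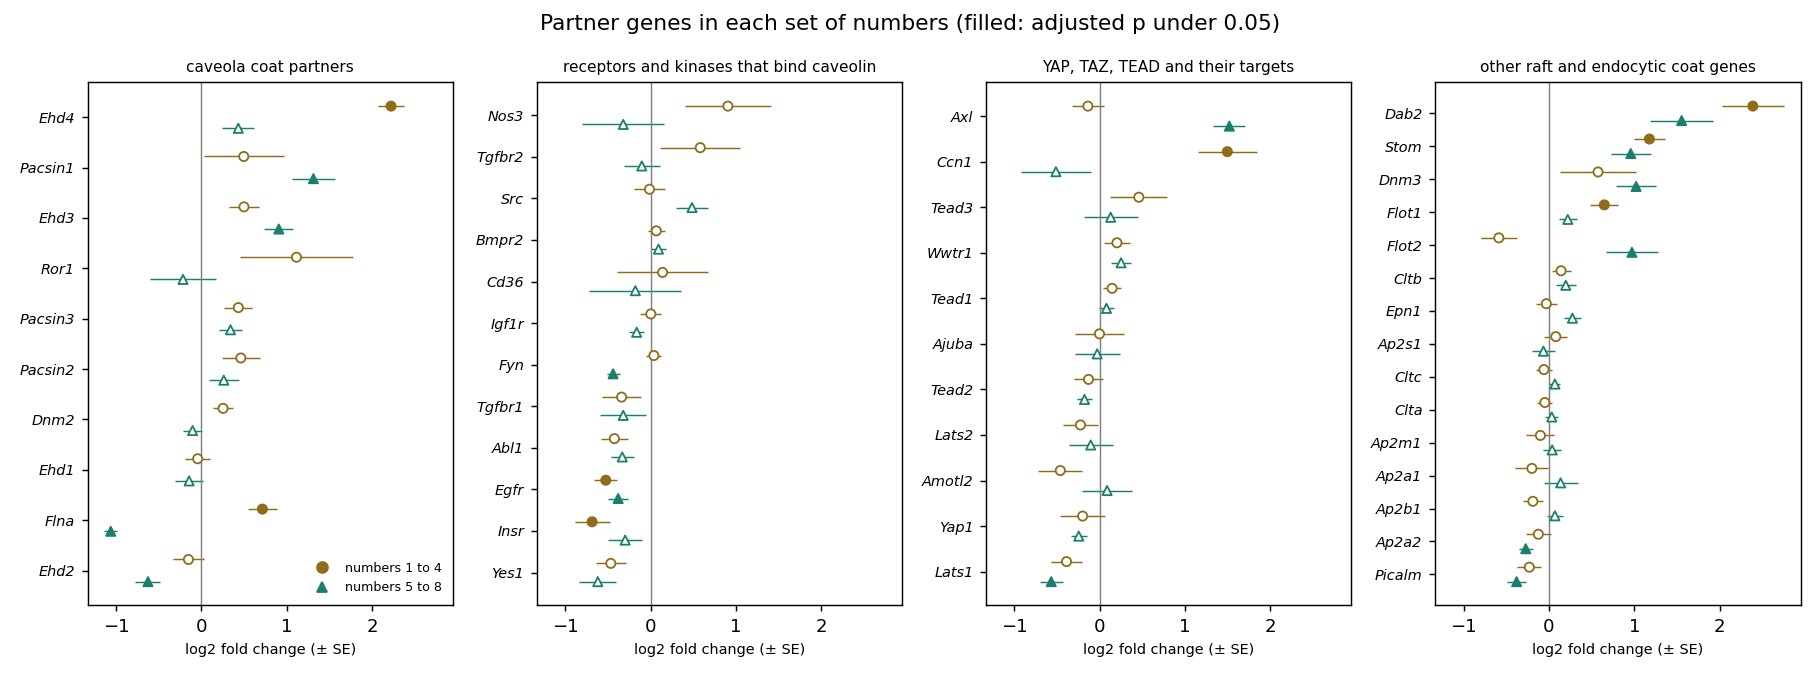
Log2 fold change (Dbx2-NSPCs over GFP-NSPCs, whiskers 1 SE) of the 48 tested genes of the 4 pathway lists in numbers 1 to 4 (circles) and 5 to 8 (triangles), filled where the limma adjusted p was under 0.05. Stom, Dab2 and Egfr are filled in both sets, Ehd4 in numbers 1 to 4 only, and Flna in both with opposite signs.

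Markers of cell types that carry many caveolae were read beside the family. Of 8 endothelial markers, *Cdh5*, *Tie1* and *Cldn5* were listed at 0 in every sample, and the summed level of the 8 was 1.34 to 10.73 CPM in controls and 0.3 to 12.2 CPM in *Dbx2*-NSPCs. Of 9 mural and smooth muscle markers, *Des* was listed at 0, and the sum was 22.66 to 50.98 CPM in controls and 20.46 to 51.74 CPM in *Dbx2*-NSPCs, of which *Notch3*, a receptor that progenitors also express, held 17.58 to 50.98 CPM. *Acta2*, smooth muscle actin, was at 0 in the *GFP*-NSPCs numbered 1 to 4 and at 3.19 ± 1.84 CPM in the *Dbx2*-NSPCs with those numbers (n = 4 each), the samples with the highest *Cavin1*. In that set *Notch3* averaged 29.6 CPM in controls and 24.8 CPM with the *Dbx2* transgene, *Kcnj8* 0 and 1.02 CPM, and *Tagln* 0.10 and 0 CPM, and the other 5 were at 0.423 CPM or less on average in both groups. The 8 fibroblast and meningeal markers summed to 31.75 to 49.75 CPM in controls and 27.8 to 41.54 CPM in *Dbx2*-NSPCs. None was listed at 0 in every sample. Most of these sums came from *Foxc1*, at 25.71 CPM on average in controls and 17.44 CPM in *Dbx2*-NSPCs, and *Fbln1*, at 11.97 and 11.93 CPM. *Pdgfra* averaged 2.22 and 1.26 CPM in the same order. *Col1a1*, *Col1a2*, *Col3a1*, *Dcn* and *Lum* stayed under the filter, at 0.746 CPM or less on average in both groups. The 6 microglial markers summed to at most 1.96 CPM, with *Tmem119* and *Aif1* at 0.

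The summed level of the mature astrocyte markers was higher in numbers 1 to 4 than in numbers 5 to 8 in both groups. The 6 genes summed to 628.49 to 902.42 CPM in *GFP*-NSPCs numbered 1 to 4 and to 288.69 to 370.71 CPM in those numbered 5 to 8. In *Dbx2*-NSPCs they summed to 421.96 to 617.74 CPM and to 243.44 to 281.6 CPM in the same order. *Slc1a2* and *Aldh1l1* held most of the sums, and single markers went the other way: *Gja1* averaged 47.2 CPM in the controls numbered 1 to 4 and 61.9 CPM in those numbered 5 to 8, and *Aqp4* 8.39 and 11.35 CPM in the *Dbx2*-NSPCs. The sum of numbers 1 to 4 was lower with the transgene, but its genes did not move together. There *Gfap* rose with the transgene from 10.2 to 65.3 CPM on average and *Aqp4* from 7.56 to 8.39 CPM, while the others averaged lower. In numbers 5 to 8 *Gfap* rose from 1.38 to 19.8 CPM, *Aqp4* and *Slc1a2* also averaged higher, and the others averaged lower. The 5 ependymal markers summed to 10.99 to 38.2 CPM over all samples, with *Tmem212* and *Pifo* listed at 0. The part of these cells in the levels of the members was not tested, and in such bulk RNA fewer cells of a type and less RNA per cell cannot be told apart.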

How the data were processed

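RNA of 16 cultures had been sequenced as QuantSeq libraries from 100 ng of total RNA with single-end reads of 101 bases. According to the methods and the submitters' processing notes, reads were checked with FastQC 0.11.8, trimmed with bbduk and aligned with STAR 2.5.0a to GRCm38 with Ensembl annotation. The counting tool and strand setting are not given in the sources used here. The authors deposited a table of CPM rounded to 2 decimals for 30386 genes, of which 12637 were at 0 in every sample, and 0 of its sample columns were left out. Within a tolerance of 0.01 CPM, 99.6% to 100% of the values above 0 of a sample were whole reads. Depth was 1803929 to 3293285 reads, and intervals and floors cover counting error only.

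Groups and numbers came from the sample titles. A gene was tested if over 1 CPM in 4 or more of 16 samples, which kept 12533 genes. The test, on log2(CPM + 0.5), was that of limma 3.58.1 under R 4.3.3 (eBayes with trend, 2-sided), adjusted by Benjamini-Hochberg across these genes, at a threshold of 0.05. A fold change on this scale understates the change of low genes. The study fitted the cell line as a covariate, which the labels do not give, so none was fitted. The series text calls the samples of a group biological replicates, while the study cultured each line repeatedly, so p-values measure the spread between cultures of few lines. Deviations of same-numbered samples from their group means correlated at 0.152 to 0.303 in all 8 pairs, and the numbers of the titles were taken to pair the samples for the replicate block. These deviations include the difference between the number sets. From the means of group and number set the correlations were -0.01 to 0.119, so pairing within a set is an assumption, on which the results of the replicate block rest.

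Members, lists and neighbours were chosen with earlier results of these data known. Named genes were the members, *Dbx2*, the list genes past the threshold over all samples with at least 10 CPM on average in a group (at most 6 a list), list genes at 0 in every sample, the 3 genes most correlated with each member that reached 10 CPM, the tested neighbours of *Cav1* and *Cav2* and the called neighbours of the others; genes named for a single set were added after their values were seen. Among the called neighbours, 1 is not reported here. Positions came from GENCODE M21. Alternatives were other pseudocounts, filters, scalings and variance priors, the replicate block, the number set as a covariate, leaving out each sample, and, on recovered reads, DESeq2 1.42.0 and edgeR 4.0.16. The test of a difference between number sets was added after the data had been seen. The fits were first tested on simulated data.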

Additional observations from a re-analysis of the deposited data

Results flagged for a closer look

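Among 48 groups of samples checked for a value far from the rest, 3 were found, where chance gives about 1 in 20. *Cavin2* in *GFP*-NSPC sample 3, at 5.86 CPM, lay below the other 3 controls of numbers 1 to 4. *Dbx2* in *Dbx2*-NSPC sample 1 lay above its group at 232.13 CPM. *Yes1* in *GFP*-NSPC sample 5 lay above its group at 36.02 CPM.

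The transgene effect was compared between numbers 5 to 8 and 1 to 4 for the 58 tested pathway genes and neighbours of *Cav1* and *Cav2*, and 7 differed (limma, adjusted over all tested genes), against 1183 of all tested genes (9.44%). The differences of the log2 fold changes were -1.79 for *Ehd4* and -1.78 for *Flna*, whose values in each set stand above. *Ccn1* differed by -2.01 (adjusted p of limma = 0.0161) and *Fyn*, a Src family kinase, by -0.48 (adjusted p of limma = 0.00949). *Axl*, a receptor kinase and YAP target, differed by 1.66 (adjusted p of limma = 0.000128), with 26.4 and 24.0 CPM in the *GFP*-NSPCs and *Dbx2*-NSPCs of numbers 1 to 4 and 11.6 and 33.5 CPM in those of numbers 5 to 8. *Flot2*, the second flotillin, differed by 1.56 (adjusted p of limma = 0.00568), and *Cttnbp2* by 1.15 (adjusted p of limma = 0.00206). The members were not tested in this way, since the sets had entered their choice.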

How the results depend on the processing

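Of 261 alternative values of the members' log2 fold changes, 257 moved by less than the spread between replicates and 0 turned a called direction. The other 4 were of *Cavin3* in numbers 5 to 8, at 2.03 as reported, which became 2.92 with a pseudocount of 0.1, 1.12 with a pseudocount of 2, 2.77 with edgeR and 2.86 with DESeq2 on recovered reads; its controls held 5 reads. *Cavin3* could not be fitted with the filter of a mean of at least 10 CPM. The filters, the variance prior, the replicate block and the number set as a covariate leave these log2 fold changes unchanged by construction. The spread over all samples also holds the difference between the sets, so the count of 257 says little about stability. *Cavin1* over all samples, at 0.79, was counted among the 257 although it was 1.97 with edgeR and 1.98 with DESeq2. It was 0.34 to 1.21 with a sample left out. The number set as a covariate raised the genes called over all samples from 1982 to 3034, the pathway genes from 10 to 16, the neighbours from 6 to 10 and the members from 2 to 3, adding *Cavin3*. The calls of members are a description only, since the contrast had entered their choice. The replicate block also gave 10 neighbours, 14 pathway genes, and the same members over all samples and in each set, and the filter at 10 CPM gave 2 neighbours. In numbers 1 to 4 the genes called, 1950, were 1299 with no filter on low values and 1286 to 2209 with a sample left out, lowest without *GFP*-NSPC sample 3. The pathway genes there, 8, were 3 with no filter and 4 without the trend. Depth limits *Cav1* and *Cavin3* most, since 3 reads equal 0.911 to 1.66 CPM.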
